A study of Mus musculus with 2 samples.

Results

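The cytochrome P450 genes of the mouse kidney were taken as the protein-coding genes of the read-count table whose symbol is Cyp followed by a digit. Cyp51, Cyp27b1, Cyp24a1 and the Cyp26 genes, which belong to sterol synthesis, vitamin D and retinoid breakdown, were left out. This gave 93 genes of the 45777 in the table. The libraries were 1 from whole kidneys of conditional knockout (CKO) mice, in which Inmt was targeted in the proximal tubule, and 1 from whole kidneys of control mice. All mice ate standard chow and were untreated. Sex, age, strain, the Cre driver, the floxed allele and the number of animals per library are not given in the sources used here. The comparison asks how P450 expression differs when the amine methyltransferase gene Inmt is deleted in the tubule segment that carries most renal P450 activity.

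P450 enzymes are heme proteins that insert an oxygen atom into fats, steroids and foreign chemicals. Most sit in the endoplasmic reticulum and take electrons from P450 reductase, and a few sit in mitochondria and take them from ferredoxin. In the kidney the proximal tubule is their main site, where Cyp4 enzymes hydroxylate the tail of fatty acids, Cyp2c and Cyp2j enzymes make epoxides from arachidonic acid, and other Cyp2 enzymes oxidise drugs and solvents. In mice many of these genes are set by sex hormones and growth hormone, and several Cyp4a genes by the fatty acid receptor PPARA.

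The CKO library held 38136616 counted reads and the control library 33618076. Levels are in CPM, read counts scaled to library size, here with TMM factors. A log2 ratio sets the CKO library over the control library after 0.5 was added to each CPM value, so for genes with few reads it is smaller than the plain ratio. A gene with 1 CPM or more in either library is called expressed, and a log2 ratio past 1 or -1 is called at least 2-fold. Each group had 1 library, so differences have no replicate check, and neither a test nor a p-value is given. The intervals given are exact 95% counting intervals, which cover counting error only and compare these libraries, not the genotypes. Inmt itself was at 124 CPM in the CKO library and 587 CPM in the control library.

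P450 mRNA was lower in the CKO library, mainly through its most abundant members. Summed over all 93 genes, the level was 5061 CPM (5040 to 5083) in the CKO library and 11416 CPM (11378 to 11455) in the control library, 2.26-fold lower (2.24 to 2.27). The family took 0.565% of all CKO reads and 1.02% of all control reads. By the authors' TPM, which is scaled by gene length, the sums were 5109 in the CKO library and 9024 in the control library, 1.77-fold lower. With total counts, which use neither gene length nor TMM factors, the sum was 1.81-fold lower. Cyp4b1 and Cyp2e1 made up 67.3% of the summed CPM difference. Without them the family was at 3047 CPM in the CKO library and 5124 CPM in the control library, still 1.68-fold lower (1.67 to 1.69). In whole-kidney RNA, fewer tubule cells and less mRNA per cell cannot be told apart.

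**Figure D1:**
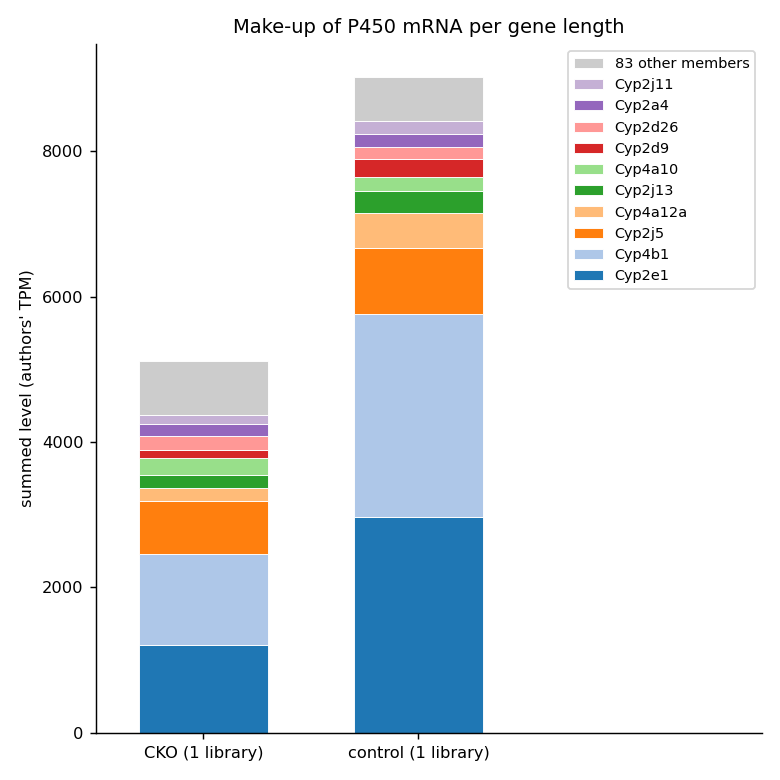
Summed authors' TPM of the 93 P450 genes in the CKO library and the control library, with the 10 most abundant members coloured and the other 83 in grey. Cyp2e1 and Cyp4b1 fill 48.3% of the CKO bar and 63.8% of the control bar, while the 83 other members fill 14.3% and 6.79%.

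Single members went both ways. Of the 93 genes, 38 were expressed, and of these 7 were at least 2-fold higher in the CKO library, 8 were at least 2-fold lower and 23 lay between. Among all 15129 expressed genes, 10.3% were at least 2-fold higher and 1.66% at least 2-fold lower, so the lower side held 8 of 38 P450 genes where the background share is small. Among expressed protein-coding genes those shares were 10.9% and 1.39%. The P450 median log2 ratio was -0.12, against 0.01 for all expressed genes. When total counts set the scale, the medians were 0.17 for P450 genes and 0.32 for all expressed genes, so the sign of the P450 median turned. Its distance to the median of all genes was -0.13 with TMM, -0.15 with total counts, -0.10 with TPM and -0.04 with FPKM, and 0.02 with TMM without the sex-biased members. Total counts gave 9 members at least 2-fold higher, all 7 of those above with Cyp1b1 and Cyp4f16, and 6 lower, the 8 above without Cyp2j13 and Cyp4a30b. On that scale 15.7% of all expressed genes passed on the higher side and 0.670% on the lower.

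Directions differed with abundance. The 13 members with a mean of 100 CPM or more included 6 past the lower limit and 0 past the higher one. Their median was -0.83, and 12 of them lay below 0. Of all 1934 genes in that range, 4.24% passed the lower limit and 1.34% the higher one, and the median was -0.30. Of 12 expressed members under 10 CPM, 5 were at least 2-fold higher and 1 was lower, with a median of 0.40. There the background was high too, where 21.4% of 5374 genes passed the higher limit and 1.66% the lower, around a median of 0.35. The 13 members in between had 2 higher and 1 lower, where 4.81% and 1.02% of all genes passed.

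**Figure D2:**
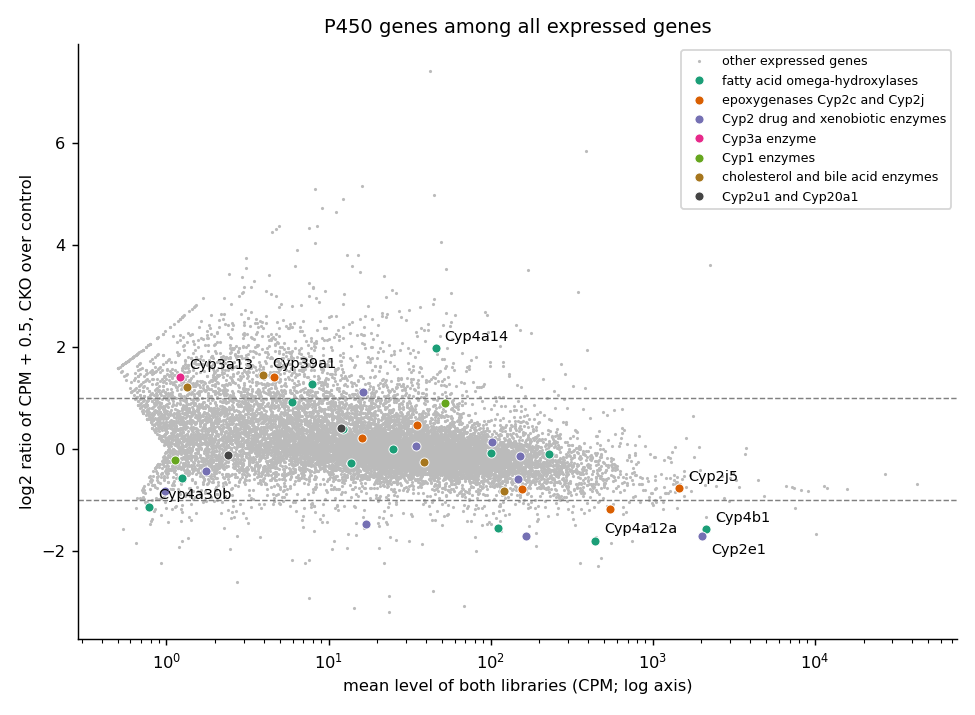
Log2 ratio of CPM + 0.5 (CKO over control) against the mean level of both libraries in CPM on a log axis, for 38 expressed P450 genes coloured by role and all other expressed genes in grey. Of 13 members with 100 CPM or more, 12 lie below 0, and Cyp4a14 is the highest member at 1.98.

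Among the fatty acid hydroxylases of the Cyp4 family, 13 of 20 members were expressed, with 2 at least 2-fold higher and 4 at least 2-fold lower. Beside this and the counts of the groups below stand the shares of all expressed genes, 10.3% higher and 1.66% lower. The summed level of the Cyp4 members was 1786 CPM in the CKO library and 4461 CPM in the control library, 2.50-fold lower (2.48 to 2.52). Cyp4b1, which hydroxylates medium-chain fatty acids and activates some toxic furans, had 45468 reads in the CKO library and 95983 in the control library. Its level was 1068 CPM (1058 to 1078) in the CKO library and 3188 CPM (3168 to 3208) in the control library, 2.99-fold lower (2.95 to 3.02). It was among the most abundant members per length, at 1256 TPM in the CKO library and 2797 TPM in the control library.

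The window around the start site of Cyp4b1 is shown with that of Cyp2e1, the other member that carried most of the family's difference, and with that of Cyp4v3, a member that was higher in the CKO library. Each runs from 250 bases before to 50 bases after the start, 5′ to 3′ on the gene's strand, from RefSeq on GRCm38.p6. Capitals mark matches, on either strand, to TATAAA (the TATA box), AGGTCA (the core of many nuclear receptor sites), AGAACA (a core shared by the sites of several steroid hormone receptors), GCGTG (the core of AHR sites) and GTTAAT (part of HNF1 sites). The windows are chr4:115647672-115647971 on the minus strand for Cyp4b1, chr7:140763569-140763868 on the plus strand for Cyp2e1 and chr8:45333114-45333413 on the minus strand for Cyp4v3.
Cyp4b1: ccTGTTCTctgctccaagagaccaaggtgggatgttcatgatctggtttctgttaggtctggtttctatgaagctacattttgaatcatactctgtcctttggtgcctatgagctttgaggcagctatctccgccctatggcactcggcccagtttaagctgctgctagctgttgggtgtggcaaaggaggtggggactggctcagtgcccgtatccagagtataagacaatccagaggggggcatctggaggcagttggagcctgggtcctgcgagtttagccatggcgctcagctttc
Cyp2e1: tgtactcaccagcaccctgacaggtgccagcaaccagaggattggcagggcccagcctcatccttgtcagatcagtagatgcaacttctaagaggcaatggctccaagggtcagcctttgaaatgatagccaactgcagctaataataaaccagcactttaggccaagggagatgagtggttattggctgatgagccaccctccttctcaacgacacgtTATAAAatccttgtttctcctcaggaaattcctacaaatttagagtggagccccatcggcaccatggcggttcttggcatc
Cyp4v3: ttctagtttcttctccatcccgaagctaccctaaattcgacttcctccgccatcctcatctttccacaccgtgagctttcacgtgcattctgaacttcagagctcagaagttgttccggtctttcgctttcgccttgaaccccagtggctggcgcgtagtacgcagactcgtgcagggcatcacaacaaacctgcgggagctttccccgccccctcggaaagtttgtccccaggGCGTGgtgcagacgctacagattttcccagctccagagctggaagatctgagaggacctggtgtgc

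In these windows Cyp4b1 held AGAACA once, read on the opposite strand 248 bases before the start. Cyp2e1 held TATAAA 31 bases before the start, and Cyp4v3 held GCGTG 16 bases before it. Of all 27025 genes with such a window, 19.0% held AGAACA, 14.2% TATAAA, 32.5% GCGTG, 16.0% AGGTCA and 7.20% GTTAAT. A window was matched for 72 of the 93 members, among them 5 of the 8 lower and 4 of the 7 higher ones. AGAACA was in 1 of those 5 lower members and in none (0) of the 4 higher ones, TATAAA was in 2 and 0, AGGTCA in 0 and 0, GCGTG in 1 and 2, and GTTAAT in 1 and 0. Of 17 matched expressed members between the limits, AGAACA was in 5, TATAAA in 6, AGGTCA in 4, GCGTG in 7 and GTTAAT in 4. These matches describe letters and no more. No window was matched for Cyp4a12a, Cyp4a12b, Cyp4a14, Cyp2c23, Cyp2d12 and Cyp39a1.

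Cyp4a12a, the main arachidonic acid tail hydroxylase of male mouse kidney, was at 197 CPM (193 to 202) in the CKO library and 688 CPM (678 to 697) in the control library. It was 3.48-fold lower (3.40 to 3.57), the lowest log2 ratio of the family at -1.80. Its close copy Cyp4a12b was at 56.7 CPM in the CKO library and 166 CPM in the control library, 2.93-fold lower (2.79 to 3.08). The split of reads between the copies is uncertain, because 48.9% of the 50-base windows of the Cyp4a12a transcript also occur in Cyp4a12b. Their coding sequences are 1524 bases each and differ at 23 bases, so 98.5% are identical. The stretch with the most differences, bases 661 to 750 counted from the start codon, is shown as an example of how little separates their reads. It comes from GENCODE M21 transcripts on chromosome 4, plus strand, and capitals mark the 7 differing bases.
Cyp4a12a: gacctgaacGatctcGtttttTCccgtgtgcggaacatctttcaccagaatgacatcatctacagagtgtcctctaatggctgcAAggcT
Cyp4a12b: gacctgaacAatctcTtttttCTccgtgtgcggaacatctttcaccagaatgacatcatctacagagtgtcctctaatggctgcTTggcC

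Taken as a pair, which does not depend on the split between them, Cyp4a12a and Cyp4a12b were at 254 CPM in the CKO library and 854 CPM in the control library, 3.36-fold lower (3.28 to 3.44).

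Cyp4a14 went the other way. This PPARA-responsive fatty acid hydroxylase had 3124 reads in the CKO library and 548 in the control library. It was at 73.4 CPM (70.8 to 76.0) in the CKO library and 18.2 CPM (16.7 to 19.8) in the control library, 4.03-fold higher (3.68 to 4.42). Cyp4a10, the other well-known PPARA-responsive member, was at 220 CPM in the CKO library and 237 CPM in the control library. Its log2 ratio of -0.11 turned to 0.21 with total counts. Cyp4a31 at -0.07 and Cyp4a32 at -0.27 likewise turned positive, at 0.25 and 0.04, with total counts. Of the 50-base windows of Cyp4a32, 46.8% occur in other genes and 34.8% in Cyp4a10, so its value is uncertain. The same holds to a lesser degree for Cyp4a10, with 30.5% of its windows in other genes, and Cyp4a31, with 21.8%. Cyp4a30b, a minor member on 13 reads in the CKO library and 38 in the control library, was 4.13-fold lower with a wide interval (2.15 to 8.46).

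The Cyp4a and Cyp4b genes lie side by side, and neighbours differed in direction. The cluster holds 10 members within 541 kb of chromosome 4 (GRCm38, 115106323 to 115647721), of which 8 were expressed, 1 higher and 4 lower. Cyp4a30b and Cyp4a14 are 14.8 kb apart, with log2 ratios of -1.13 and 1.98. Cyp4a10, 22.1 kb beyond Cyp4a14, was at -0.11, and Cyp4b1 lies 2.19 kb from Cyp4a32, with -1.58 and -0.27. The closest expressed genes outside the cluster were Pdzk1ip1 at -0.34 and Efcab14 at -0.13.

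Outside that cluster, Cyp4v3 was the other higher member of the Cyp4 family. It is the counterpart of the human fatty acid hydroxylase gene mutated in Bietti crystalline dystrophy. It had 483 reads in the CKO library and 133 in the control library and was 2.57-fold higher (2.12 to 3.14), at 11.3 CPM in the CKO library and 4.42 CPM in the control library. The Cyp4f genes, several of which hydroxylate leukotrienes, had 4 of 9 members expressed and none (0) past 2-fold. Cyp4f16 was the closest, at a log2 ratio of 0.91 (7.89 CPM in the CKO library and 3.95 CPM in the control library), and it passed with total counts. Cyp4f13 was at 24.94 CPM in the CKO library and 24.98 CPM in the control library.

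**Figure D3:**
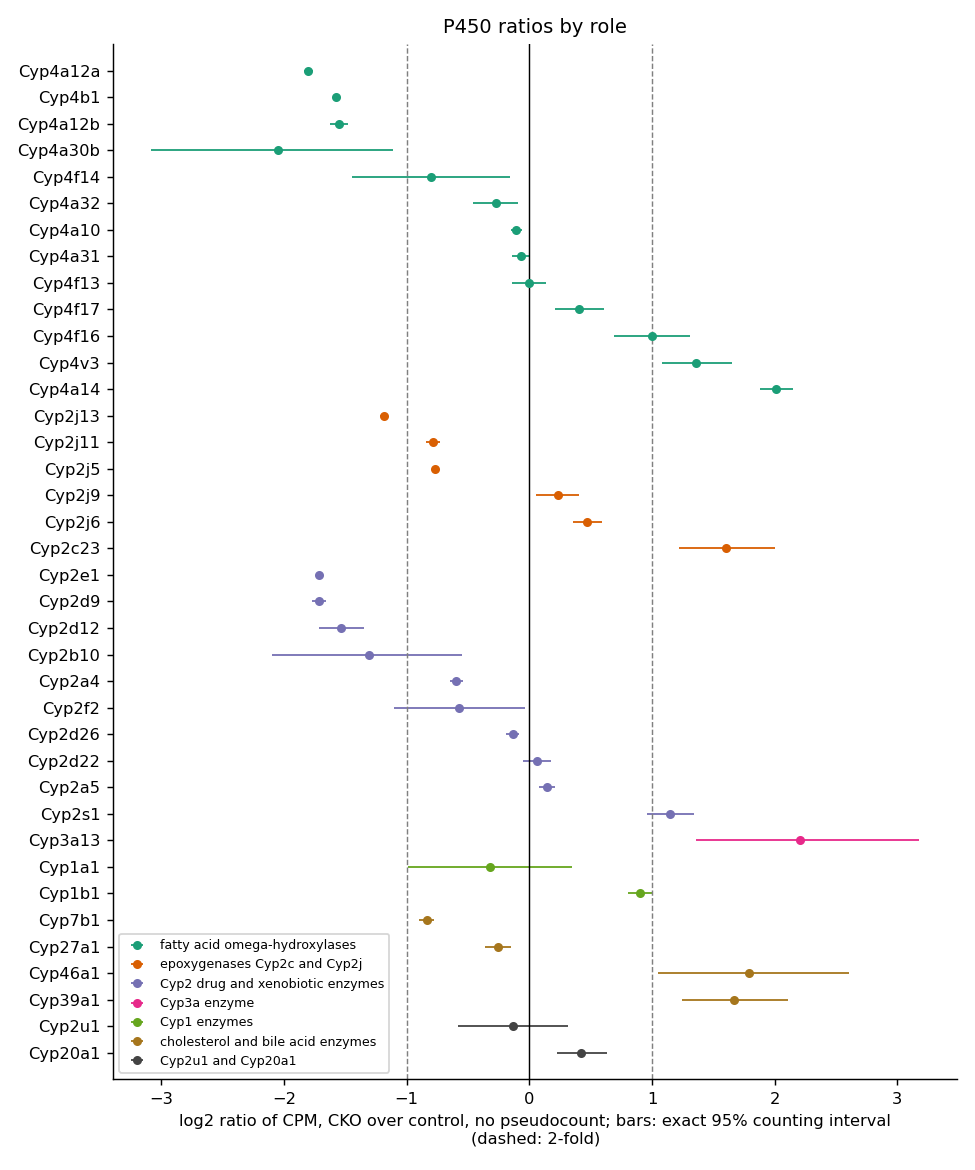
Log2 ratio of CPM without a pseudocount (CKO over control) for 38 expressed P450 genes, grouped and coloured by role, with exact 95% counting intervals and dashed lines at 2-fold. Every role with more than 2 members shown has members on both sides of 0, and the widest intervals belong to Cyp4a30b and Cyp3a13.

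The arachidonic acid epoxygenases of the Cyp2c and Cyp2j subfamilies had 22 members, of which 6 were expressed, 1 higher and 1 lower. Cyp2j5, an epoxygenase of the proximal tubule, was the third most abundant member per length. It was at 1080 CPM (1070 to 1090) in the CKO library and 1835 CPM (1820 to 1851) in the control library, 1.70-fold lower (1.68 to 1.72). Cyp2j13 was at 334 CPM in the CKO library and 760 CPM in the control library, 2.27-fold lower (2.23 to 2.32), with a log2 ratio of -1.18 that became -0.87 with total counts. Cyp2j11, at 114 CPM in the CKO library and 197 CPM in the control library, was 1.72-fold lower. The low members went the other way, with Cyp2j6 at 40.7 CPM in the CKO library and 29.3 CPM in the control library, and Cyp2j9 at 17.3 CPM in the CKO library and 14.8 CPM in the control library. All of these are neighbours in a 622 kb cluster on chromosome 4 (96042660 to 96664171).

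Cyp2c23, an arachidonic acid epoxygenase of rodent kidney, was the only expressed gene among 15 Cyp2c members. It had 297 reads in the CKO library and 69 in the control library and was 3.04-fold higher (2.34 to 4.02), at 6.98 CPM in the CKO library and 2.29 CPM in the control library. It lies alone on chromosome 19 (44005022 to 44029256), 18.5 kb from the carboxypeptidase N gene Cpn1, whose log2 ratio was 1.66, and 5.69 kb from Erlin1 at -0.43. The other 14 Cyp2c genes share a cluster of 1180 kb on that chromosome, in which none (0) was expressed.

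The drug and solvent enzymes of the other Cyp2 subfamilies had 10 of 24 members expressed, with 1 higher and 3 lower. Their summed level was 1462 CPM in the CKO library and 3864 CPM in the control library, 2.64-fold lower (2.62 to 2.67). Cyp2e1, which oxidises ethanol, acetone and small solvents, made up most of it. It had 40325 reads in the CKO library and 93490 in the control library. Its level was 947 CPM (938 to 956) in the CKO library and 3105 CPM (3085 to 3125) in the control library, 3.28-fold lower (3.24 to 3.32). In the control library it was the most abundant P450 per length, at 2964 TPM, while in the CKO library, at 1211 TPM, it came just after Cyp4b1.

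The Cyp2d members split. Cyp2d9, a testosterone hydroxylase of male mouse liver, was at 77.1 CPM in the CKO library and 253 CPM in the control library, 3.28-fold lower (3.15 to 3.42). Cyp2d12 was at 8.74 CPM in the CKO library and 25.2 CPM in the control library, 2.89-fold lower (2.55 to 3.28). On either side of them in a 424 kb cluster of chromosome 15, Cyp2d22 had a log2 ratio of 0.06 and Cyp2d26 of -0.14, and Cyp2d26 turned to 0.18 with total counts. Of the Cyp2d9 windows, 29.0% occur in other genes, so some of its reads could belong to relatives.

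Cyp2a4, a steroid hydroxylase, was at 117 CPM in the CKO library and 176 CPM in the control library, 1.51-fold lower (1.45 to 1.57). Its near copy Cyp2a5, which oxidises coumarin and nicotine, was at 107 CPM in the CKO library and 96.4 CPM in the control library. The pair shares many windows (36.1% of those of Cyp2a4), and as a pair it was at 224 CPM in the CKO library and 273 CPM in the control library. Cyp2s1, an epithelial P450 found outside the liver, was the higher member of this group. It had 957 reads in the CKO library and 305 in the control library and was 2.22-fold higher (1.95 to 2.53), at 22.5 CPM in the CKO library and 10.1 CPM in the control library. The receptor tyrosine kinase gene Axl, 13.5 kb from it, had a log2 ratio of 1.69, and Cyp2b10, the nearest expressed gene on its other side, -0.83. The nearest expressed genes beside the higher members Cyp4v3, Cyp46a1 and Cyp3a13 ran from -0.51 to 0.50. Those beside Cyp39a1 were at 0.80 and 0.60. Cyp2b10, a target of the xenobiotic receptor CAR, had 24 reads in the CKO library and 42 in the control library and was 2.47-fold lower by the plain ratio (1.46 to 4.27). Its log2 ratio of -0.83 was the closest of those short of the lower limit, and it passed with 0.1 in place of 0.5 added to CPM. Cyp2f2, known from the club cells of the lung, had 60 reads in the CKO library and 63 in the control library.

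The sterol enzymes also divided by level. Cyp7b1, which hydroxylates oxysterols and adrenal steroids, was at 86.7 CPM in the CKO library and 155 CPM in the control library, 1.78-fold lower (1.71 to 1.86). Cyp27a1, a mitochondrial sterol hydroxylase, was at 35.5 CPM in the CKO library and 42.4 CPM in the control library. Its log2 ratio of -0.25 turned to 0.06 with total counts. Cyp39a1, an oxysterol hydroxylase, had 256 reads in the CKO library and 57 in the control library and was 3.18-fold higher (2.38 to 4.31). Cyp46a1, the cholesterol hydroxylase best known from neurons, had 88 reads in the CKO library and 18 in the control library and was 3.46-fold higher (2.07 to 6.10). Cyp7a1 and Cyp8b1, bile acid enzymes of the liver, had 0 and 2 reads in the CKO library and 0 reads each in the control library.

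Cyp1b1, which oxidises oestrogens and polycyclic hydrocarbons, was at 68.5 CPM (66.1 to 71.1) in the CKO library and 36.6 CPM (34.5 to 38.9) in the control library. It was 1.87-fold higher (1.74 to 2.01), with a log2 ratio of 0.89 that passed the limit with total counts (1.21), TPM (1.26) and FPKM (1.12). Cyp1a1, the classical target of the aryl hydrocarbon receptor AHR, had 43 reads in the CKO library and 38 in the control library, and its interval of 0.505 to 1.27 for the plain ratio includes 1. Of the other AHR target genes, none (0) of 6 expressed passed 2-fold, where 10.3% of all expressed genes were higher and 1.66% lower. The log2 ratios of the 6 ran from -0.18 to 0.36. Cyp3a13 was the only expressed gene of 9 in the drug-oxidising Cyp3a subfamily. It had 85 reads in the CKO library and 13 in the control library and was 4.62-fold higher, with an interval of 2.56 to 9.04. The cluster of 8 other Cyp3a genes on chromosome 5 held none (0) that was expressed. Of single-gene subfamilies, Cyp20a1, an enzyme with no settled substrate, was at 13.7 CPM in the CKO library and 10.2 CPM in the control library. Cyp2u1, a fatty acid hydroxylase, was at 2.30 CPM in the CKO library and 2.52 CPM in the control library.

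**Figure D4:**
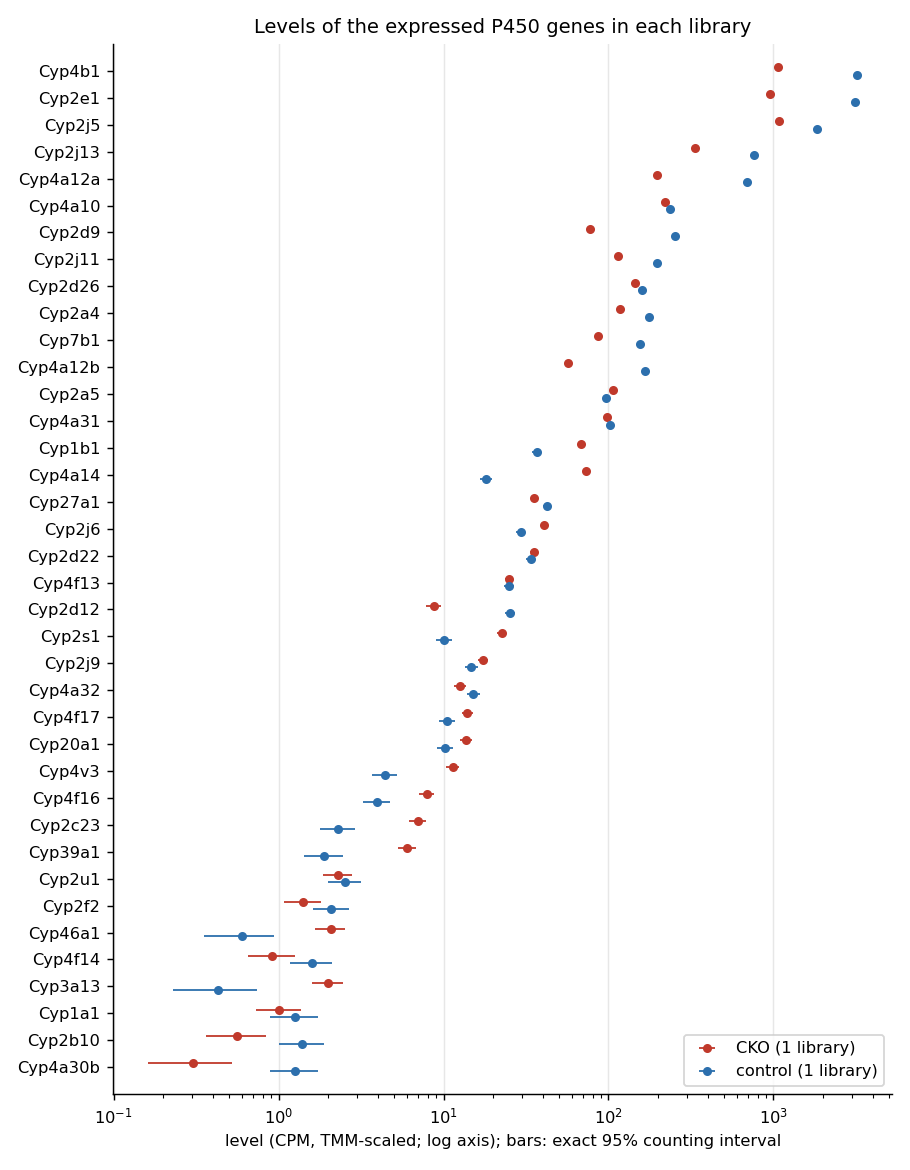
Level in CPM on a log axis of the 38 expressed P450 genes in the CKO library and the control library, ordered by the mean of both, with exact 95% counting intervals. The intervals of the libraries do not overlap for the most abundant members, such as Cyp4b1 with 1068 and 3188 CPM, and overlap for Cyp2d22 and Cyp4f13.

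The remaining 55 members were below 1 CPM in both libraries. Of these, 35 had no read in either library, which allows up to 3 reads each, or 0.0705 CPM in the CKO library and 0.0996 CPM in the control library. A further 12 had 2 to 11 reads in the CKO library and 0 in the control library, led by Cyp2c65, and Cyp2b23 had 0 reads in the CKO library and 8 in the control library. In all, 57 members had reads in the CKO library and 46 in the control library. Over all genes these numbers were 22699 and 20332, so they too were larger in the CKO library. Genes with reads in only the CKO library or only the control library were not counted over all genes. The CKO library also held more counted reads, and the part of depth in these counts was not tested. Cyp4f37 had 9 reads in the CKO library and 2 in the control library. The steroid hormone enzymes of adrenal and gonad were among the undetected genes. Cyp11b1, Cyp11b2, Cyp19a1 and Cyp21a1 had 0 reads in both libraries, and Cyp11a1 and Cyp17a1 had 6 and 3 reads in the CKO library and 0 reads each in the control library. The 6 adrenal markers include Cyp11a1, Cyp11b1, Cyp11b2 and Cyp21a1. Of these markers, 4 had no read and only Star was expressed, with a log2 ratio of 0.38. The 8 hepatocyte markers summed to 38 CPM in the CKO library and 85.8 CPM in the control library, and 4 were expressed. Apob was at 17.9 CPM in the CKO library and 32.2 CPM in the control library. Ttr was at 13.7 CPM in the CKO library and 49.2 CPM in the control library. Serpina1c (log2 ratio 0.78) and Alb (-0.24) were the other expressed ones. Cyp7a1, which is also a family member, and Ahsg were at 0 in both.

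Members known for sex-biased expression in mouse kidney or liver held most of the lower side. The list was drawn from general knowledge with earlier results of these libraries known, so it supports no direction of its own. All 8 male-biased members (Cyp4b1, Cyp2e1, Cyp2j5, Cyp2j13, Cyp4a12a, Cyp2d9, Cyp7b1 and Cyp4a12b) had log2 ratios below 0, from -1.80 to -0.77. Of these, 6 were at least 2-fold lower, against 1.66% of all expressed genes. All 8 had a mean of 100 CPM or more, where the share was 4.24% and the median of all genes -0.30. With total counts 5 were at least 2-fold lower, against 0.670% of all expressed genes. The median of the 8 was -1.56, or -1.24 with total counts. They summed to 3847 CPM in the CKO library and 10150 CPM in the control library, 2.64-fold lower (2.62 to 2.65), and took 74.3% of the family's TPM in the CKO library and 88.0% in the control library. The 4 members listed as female-biased were mixed, with Cyp4a14 higher and Cyp2a4, Cyp2a5 and Cyp4a10 between the limits. The lists do not separate bias in kidney from bias in liver, so a listed bias need not hold in kidney. Outside both lists, 26 members were expressed, 6 of them higher and 2 lower (Cyp2d12 and Cyp4a30b), with a median of 0.03. These members summed to 698 CPM in the CKO library and 739 CPM in the control library.

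Lists of other sex-biased genes and of cell type markers were set beside them, against shares over all expressed genes of 10.3% at least 2-fold higher and 1.66% at least 2-fold lower (1.34% and 4.24% at 100 CPM or more). Of 7 male-biased genes outside the family, 6 were at least 2-fold lower, with a median of -1.68, and Kap, a kidney gene abundant in males, was at 4858 CPM in the CKO library and 15529 CPM in the control library. Of 5 female-biased genes, 3 were at least 2-fold higher, with Prlr at 39.7 CPM in the CKO library and 5.94 CPM in the control library, while Slc22a19 at -0.63 and Gm4450 at -0.70 lay below 0. The 5 summed to 229.7 CPM in the CKO library and 213 CPM in the control library. Of 10 proximal tubule markers, 4 were at least 2-fold lower and 9 had a log2 ratio below 0, with a median of -0.84. They summed to 12188 CPM in the CKO library and 20682 CPM in the control library, and with total counts their median was -0.52 and 1 of them passed the lower limit. The lists are not separate, because Slc7a13, at -1.12, counts among both these markers and the male-biased genes outside the family. All 8 markers of injured tubule were at least 2-fold higher, summing to 4706 CPM in the CKO library and 380.0 CPM in the control library. Of 8 macrophage markers, 7 were at least 2-fold higher, summing to 296 CPM in the CKO library and 65.9 CPM in the control library. The part of sex hormone state, tubule cell number, injury and immune cells in the P450 differences was not tested, and with 1 library per group they cannot be told apart from the genotype.

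**Figure D5:**
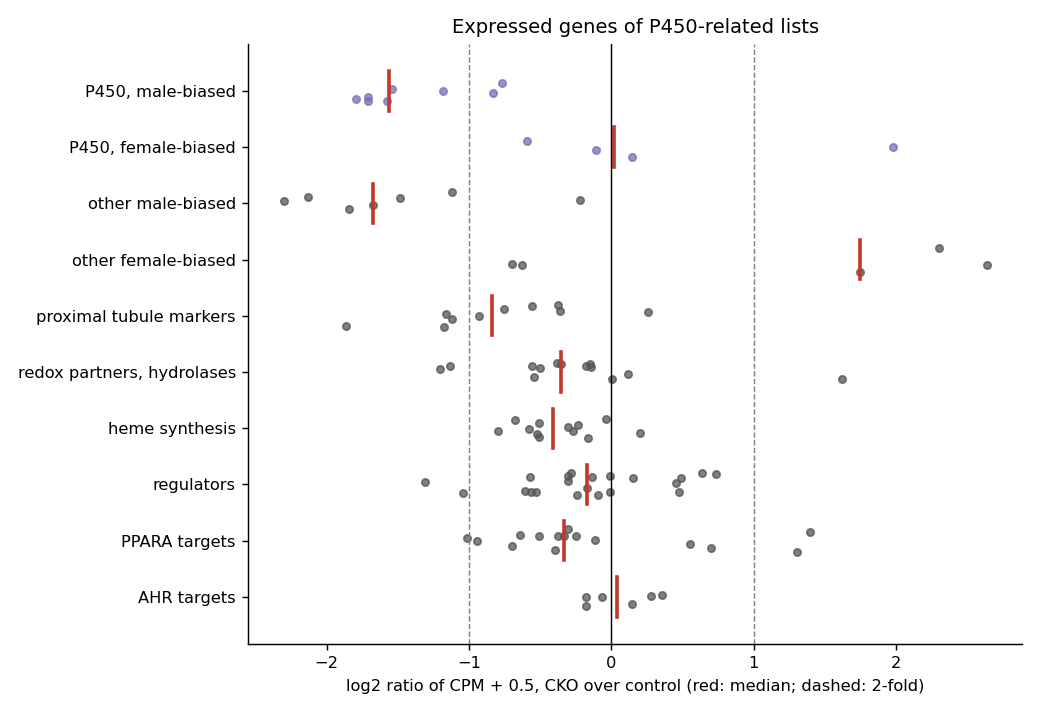
Log2 ratio of CPM + 0.5 (CKO over control) of each expressed gene in the P450-related lists, with the list median in red and dashed lines at 2-fold. The male-biased P450 genes, with a median of -1.56, lie near the other male-biased genes at -1.68 and below the proximal tubule markers at -0.84. Slc7a13 is in both the other male-biased list and the proximal tubule list.

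The partners of the P450 enzymes were mostly between the limits. Of 13 redox partners and epoxide hydrolases, 1 was at least 2-fold higher and 2 were at least 2-fold lower, with a median of -0.35, where 10.3% and 1.66% of all expressed genes passed. Por, the reductase that feeds electrons to P450s of the endoplasmic reticulum, was at 309 CPM in the CKO library and 455 CPM in the control library, a log2 ratio of -0.56. Cyb5a, the cytochrome that donates an electron to some P450s, was at 411 CPM in the CKO library and 904 CPM in the control library, a log2 ratio of -1.14. The hydrolases that open the epoxides went opposite ways. Ephx2, the soluble hydrolase acting on fatty acid epoxides, was at 244 CPM in the CKO library and 562 CPM in the control library, 2.30-fold lower. Ephx1, the microsomal hydrolase acting mainly on foreign epoxides, was at 80.7 CPM in the CKO library and 25.9 CPM in the control library, 3.12-fold higher. With total counts, Cyb5a and Ephx2 no longer passed 2-fold.

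Heme synthesis genes had none (0) of 12 past 2-fold, where 10.3% of all expressed genes were higher and 1.66% lower. Of the 12, 11 lay below 0 with TMM, with a median of -0.41 that was -0.10 with total counts. Fech, which inserts the iron and was the most abundant, was at 136 CPM in the CKO library and 204 CPM in the control library. Of 21 expressed transcription factors and receptors that set P450 genes, none (0) was at least 2-fold higher and 2 were at least 2-fold lower, beside the same shares. The median of the 21 was -0.17 and turned to 0.14 with total counts. Hnf4a, a nuclear receptor of liver and proximal tubule, was at 688 CPM in the CKO library and 1421 CPM in the control library, 2.06-fold lower. Ppard was at 18.7 CPM in the CKO library and 47.0 CPM in the control library, 2.51-fold lower. With total counts neither passed 2-fold, where 0.670% of all expressed genes passed the lower limit. Ppara, the receptor behind Cyp4a10 and Cyp4a14, was at 114 CPM in the CKO library and 142 CPM in the control library. Of 15 other PPARA target genes expressed, 2 were at least 2-fold higher (the lipid droplet gene Plin2 and the kinase gene Pdk4) and 1 was at least 2-fold lower (the peroxisomal enzyme gene Ehhadh), with a median of -0.33. The higher count is near the 10.3% of all expressed genes. With total counts 3 passed on the higher side, where 15.7% of all genes did, and 0 on the lower.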

How the data were processed

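RNA from whole kidneys was sequenced from 1 CKO and 1 control library, made with a stranded mRNA kit per the labels' protocols. Tools listed in the submitters' processing notes are Cufflinks 2.2.1, edgeR, DESeq2, HTSeq, FastQC and STAR 2.7.3a, with mm10 as the build and no role for any tool. The deposited table holds whole read counts per gene, and the FPKM and TPM values the authors made from them are scaled by gene length. A second deposited table holds normalized signal values for 19550 genes, each equal to the count divided by a constant per library.

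Counts were scaled by TMM in edgeR 4.0.16 (R 4.3.3), with factors of 1.12 for the CKO library and 0.896 for the control library. Ratios, exact Poisson intervals of levels and Clopper-Pearson intervals of ratios were computed in Python 3.11.15 with scipy 1.17.1. Size factors from DESeq2 1.42.0 were an alternative. Steps were tested on simulated counts. Whether counting used strand is not given in the sources used here. Overlapping genes with reads were Hspe1-ps6 (9 reads in the CKO library, 6 in the control library) at Cyp2j13 and Gm42375 (38 and 34) at Cyp2a4.

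All 93 members matched RefSeq on GRCm38, the assembly of mm10, by gene ID. The members and lists were chosen with earlier results of these data known. Named are members past 2-fold, the 10 most abundant by TPM, those with 10 CPM or more and the sex-biased list. The members just inside the limit and just outside it, and members with few or no reads, were named after their values were seen.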

Additional observations from a re-analysis of the deposited data

Results flagged for a closer look

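Cyp4f41-ps, a transcribed pseudogene outside the protein-coding family, had 25 reads in the CKO library and 3 in the control library. It is listed here because the 95% counting interval of its plain ratio of 5.89 (1.80 to 30.5) lay above 1. At 0.587 CPM in the CKO library and 0.0996 CPM in the control library, it was below the 1 CPM limit for expressed genes. Among expressed genes with a mean under 10 CPM, 21.4% were at least 2-fold higher.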

How the results depend on the processing

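The count of members at least 2-fold higher, 7, stayed within 1.5 times under all alternatives except a minimum of 10 CPM, where it was 3. The count of lower members, 8, became 2 without the sex-biased list and 13 with a 1.5-fold limit. The median log2 ratio of expressed members, -0.12, became 0.17 with total counts, 0.30 with TPM and 0.23 with FPKM, where the medians of all genes were 0.32, 0.40 and 0.26. It was 0.03 with any read in either library (0.028) and without the sex-biased list (0.031). The summed CKO over control ratio of 0.443 was 0.438 with DESeq2 size factors, 0.553 with total counts, 0.566 with TPM and 0.526 with FPKM, below 1 in each. With total counts, TPM and FPKM alike, none (0) of the redox list and 0 of the regulators were at least 2-fold lower, against 2 and 2, and the regulators at least 2-fold higher, 0 with TMM, were 1, 2 and 1. Of all expressed genes, 15.7%, 17.0% and 10.8% were higher with total counts, TPM and FPKM, and 0.670%, 0.902% and 0.753% were lower. No member at least 2-fold higher or lower changed sign under another scaling, unit or pseudocount. Leaving out members with 30% or more shared windows, an alternative chosen after seeing the data like those of the partner lists, gave 7 higher and 6 lower. Leaving out members by protein identity was not run. No paired analysis was possible because each group has 1 library. Cyp4a30b, Cyp46a1 and Cyp3a13 rest on few reads and lost the 2-fold call with a pseudocount of 2 CPM.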

Other observations

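The transcribed pseudogene Cyp4b1-ps2 was at 12.1 CPM in the CKO library and 31.4 CPM in the control library, 2.603-fold lower (2.335 to 2.903). The protein-coding Cyp4b1 was 2.99-fold lower, and 5.26% of its 50-base transcript windows also occur in Cyp4b1-ps2. The prostanoid synthases of P450 fold had low levels. Ptgis, the prostacyclin synthase gene, was at 1.97 CPM in the CKO library and 1.13 CPM in the control library, and Tbxas1, the thromboxane synthase gene, was at 8.92 CPM in the CKO library and 7.54 CPM in the control library.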
